A study of Apis mellifera with 12 samples.

Results

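Brains of honey bee (Apis mellifera) workers were examined for miRNAs known from endocrine, gut and ovary tissue of animals: ame-miR-375, ame-miR-989, ame-miR-750 and ame-miR-1175. They are 4 of the miRNAs on the arrays, of which 84 were detected often enough to be tested and 84 were not. They were taken by name, and were selected on the difference in signal between the groups of these same arrays, which was already known. These differences are therefore given as a description, with no p-value, and the test across all miRNAs is given only as background. The knockdown pools came from workers that received dsRNA against vitellogenin (dsVg), and the control pools from workers that received dsRNA against green fluorescent protein (dsGFP, the sham control). All bees shared the rest of the handling: an injection of 2 µL at 10 µg/µL into the abdomen just after emergence, and sampling of the brain at 15 days of age, under source names that call them foragers. There were 6 pools per group, 1 array per pool, and each pool held 1 µg of RNA shorter than 200 nucleotides, with 200 ng from each of 5 bees. The dsRNA was injected into the abdomen, not into the brain. Vitellogenin mRNA was not analysed here, so whether and in which tissues it was lowered was not tested.

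A miRNA is a short RNA that guides an Argonaute protein to messenger RNAs, mainly through pairing of its seed, the bases near its 5′ end, and lowers the output of those messages. In vertebrates miR-375 is a miRNA of pancreatic islets, where it restrains insulin secretion. In mosquitoes miR-989 is found mainly in the ovary and miR-1175 in the midgut, and in Drosophila miR-989 acts in the migration of border cells in the ovary. Vitellogenin, the target of the injected dsRNA, is the yolk precursor protein, which in worker bees is linked to juvenile hormone and to the age at which they begin to forage.

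The probes were designed against the mature sequences below, as the authors' scanner tables list them. They are shown because the seed decides which messages a miRNA can pair with. The seed, bases 2 to 8 counted from the 5′ end, is in capitals.
ame-miR-375: uUUGUUCGuucggcucgaguua
ame-miR-989: cGUGAUGUgacguagugguucu
ame-miR-750: cCAGAUCUaacucuuccagcuc
ame-miR-1175: uGAGAUUCacuccuccaacuuac
No other miRNA probe on the array carried the seed of any of these miRNAs, and each seed occurred on 1 probe. The array as a whole held 155 different seeds. Lengths were 22 bases for miR-375, miR-989 and miR-750 and 23 for miR-1175. The GC content was 45.5% for miR-375, 50% for miR-989 and miR-750 and 43.5% for miR-1175, against a median of 45.5% over all miRNA probes. In RefSeq's gene table for the assembly Amel_HAv3.1, in which all 4 precursors were found by name, those of miR-1175 and miR-750 stand in consecutive rows on sequence not placed on a chromosome. Both of these lie within the span of the same protein-coding gene, LOC100578661. The precursor of miR-375 lies within the span of LOC113218672, a protein-coding gene, and that of miR-989 within the span of LOC726461, another protein-coding gene.

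Each array held 3968 spots, among them 18 for every miRNA and 608 empty spots, and intensities still contained the background. A miRNA was counted as detected when the mean of its 18 spots lay above 95% of the empty spots on the same array. Arrays fell into 6 on which 97 or more miRNAs passed this threshold (dsVg pools 1, 2 and 3, dsGFP pools 1, 3 and 4) and 6 on which 34 to 60 did, with 3 pools of each group in either set. The division at 80 detected miRNAs was set on the data. In the second set most miRNA spots were dimmer than the empty spots on the dsVg arrays, with 66.7%, 76.2% and 63.7% of miRNAs below the median empty spot in dsVg pools 4, 5 and 6, against 58.9%, 10.1% and 4.76% in dsGFP pools 2, 5 and 6. Of the brain markers, miR-124, miR-276 and miR-7 were detected on all 12 arrays, miR-137 and miR-1000 on 11 and miR-9a on 6. The muscle markers were also present, miR-133 on 12 arrays and miR-1 on 11.

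Of the 4, miR-989 was detected in the most pools and miR-750 in the fewest at this threshold. With 3 SDs above the mean empty spot as the threshold, miR-1175 was detected in the fewest, 1 pool against 4 for miR-750. miR-375 was detected in 3 of 6 dsVg pools and 6 of 6 dsGFP pools. miR-989 was detected in 5 of 6 dsVg pools and 5 of 6 dsGFP pools. miR-750 was detected in 3 of 6 dsVg pools and 3 of 6 dsGFP pools, and miR-1175 in 3 of 6 dsVg pools and 4 of 6 dsGFP pools. All 4 were detected on each of the 6 arrays with over 80 detected miRNAs. Most miRNAs passed there: every miRNA in dsVg pool 1, 120 in dsVg pool 2 and 97 in dsVg pool 3. In dsGFP pools 1, 3 and 4 the numbers were 165, 121 and 133. Detection on these arrays therefore sets the 4 little apart from the other miRNAs. On the other 6 arrays, where 34 to 60 miRNAs passed, miR-375 was detected on 3, miR-989 on 4, miR-750 on 0 and miR-1175 on 1. The numbers that passed there were 47, 34 and 52 in dsVg pools 4, 5 and 6. In dsGFP pools 2, 5 and 6, the 3 with miR-375, they were 56, 49 and 60. Detection of miRNAs in general was thus mostly lower on these dsVg arrays, although dsVg pool 6 exceeded dsGFP pool 5. Its part in the detection of miR-375 was not tested.

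The intensity of miR-375 was 1.21, 1.14, 1.80, 0.804, 0.745 and 1.07 times that of the median empty spot in dsVg pools 1 to 6. In dsGFP pools 1 to 6 it was 1.32, 1.21, 1.48, 1.41, 1.17 and 1.28 times the median empty spot. The dsVg pools therefore covered a wider range than the dsGFP pools. The 3 in which the miRNA was not detected were the 3 dsVg pools with most miRNAs below the median empty spot. In dsGFP pool 2, where 58.9% of miRNAs were below it, miR-375 was detected, with 18 of 18 spots above the 95th percentile. It was the dimmest miRNA to pass there, at rank 56 by intensity where 56 passed. In dsGFP pool 5 it was at rank 48 where 49 passed, with 11 of 18 spots above the 95th percentile. Of the single spots, 56 of 108 in the dsVg group and 100 of 108 in the dsGFP group exceeded the 95th percentile of the empty spots. With 3 SDs above the mean empty spot as the threshold, miR-375 was detected in 2 dsVg pools and 4 dsGFP pools.

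The intensity of miR-989 was 1.37, 1.96, 3.42, 1.68, 1.18 and 1.38 times that of the median empty spot in dsVg pools 1 to 6. In dsGFP pools 1 to 6 it was 1.47, 1.30, 4.25, 1.67, 1.14 and 1.29 times. One pool of each group, dsVg pool 3 and dsGFP pool 3, stood far above the rest of its group on this scale, and the groups overlapped along most of their range. The pools in which it was not detected were dsVg pool 5, with 1 of 18 spots above the 95th percentile, and dsGFP pool 5, with 8 of 18.

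For miR-750 the ratio to the median empty spot ran from 0.734 through a median of 1.05 to 1.32 in dsVg pools, and from 0.945 through a median of 1.09 to 1.44 in dsGFP pools. For miR-1175 it ran from 0.722 through a median of 0.992 to 1.27 in dsVg pools, and from 0.918 through a median of 1.13 to 1.22 in dsGFP pools. With 3 SDs above the mean empty spot, miR-750 was detected in 3 dsVg pools and 1 dsGFP pool, and miR-1175 in 1 dsVg pool, pool 1, and 0 dsGFP pools. In the other pools miR-1175 was not detectable at this threshold.

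**Figure D1:**
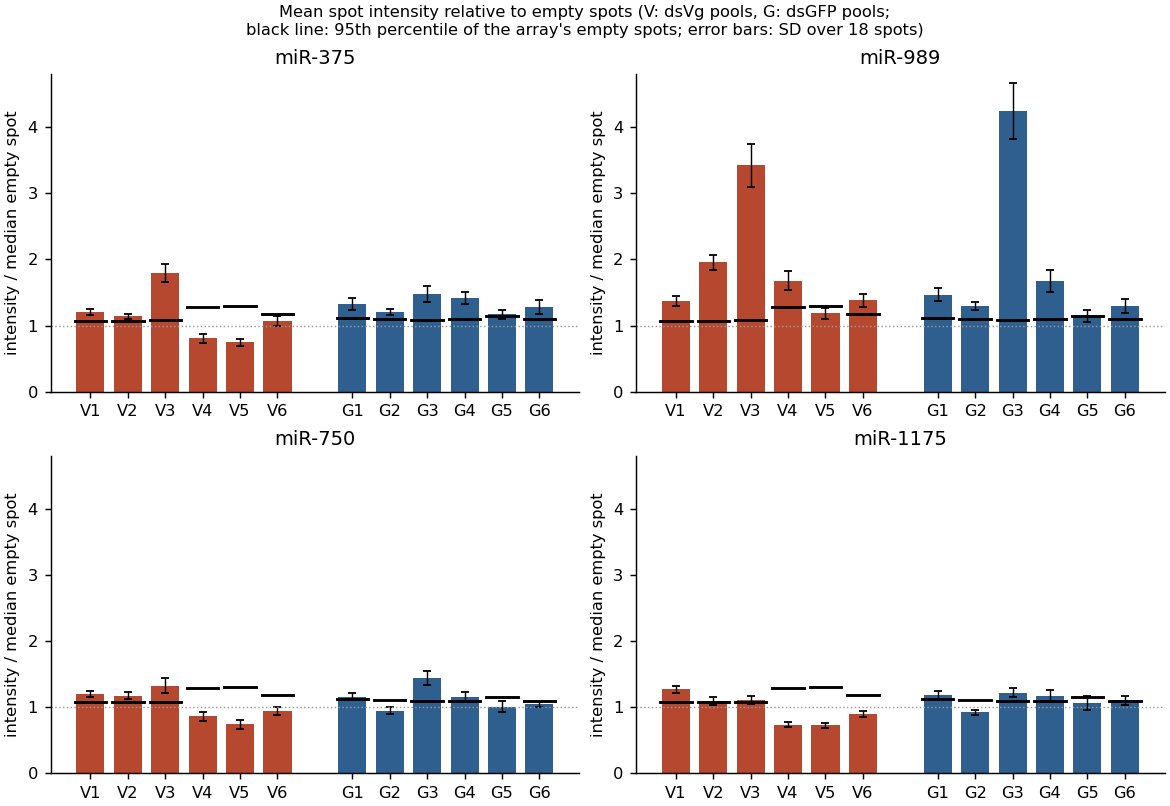
Bars give the mean intensity of the 18 spots of each miRNA divided by the median of the array's 608 empty spots (y axis, ratio), per pool, with dsVg pools 1 to 6 as V1 to V6 and dsGFP pools 1 to 6 as G1 to G6; error bars are the SD over spots and each black line is the 95th percentile of the array's empty spots. In V4 and V5 the bars of miR-375, miR-750 and miR-1175 lie below 1, and the tallest bars are those of miR-989 in V3 (3.42) and G3 (4.25).

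After background correction and quantile normalization between arrays, the signal of miR-375 was lower and that of miR-989 higher in the dsVg group, each with overlapping pools, and the groups were close for miR-750 and miR-1175. In pooled brains, fewer cells that hold a miRNA and less of it per cell cannot be told apart. Across the 84 miRNAs detected on at least 6 arrays, limma called 0 at an adjusted p under 0.05 (0.00% of those tested) and 3 at an unadjusted p under 0.05 (3.57%). The groups' pools were fully separated for 0 of the 84 (0.00%). All 4 miRNAs passed the filter for testing, miR-750 at its minimum of 6 arrays. Signals are on the log2 scale, and a difference is dsVg minus dsGFP.

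The normalized signal of miR-375 was 7.07, 6.88, 6.90, 6.74, 6.66 and 7.03 in dsVg pools 1 to 6. In dsGFP pools 1 to 6 it was 7.29, 7.29, 6.84, 7.24, 7.49 and 7.43. All 6 dsVg pools lay below the dsGFP mean, but dsGFP pool 3 lay among the dsVg pools, so that only 2 dsVg pools were below every dsGFP pool. The means were 6.88 ± 0.16 in the dsVg group and 7.26 ± 0.23 in the dsGFP group (SD, n = 6 each), a difference of -0.38 (SE 0.12), equal to 0.767-fold. This difference was the 18th in size among the 84 tested.

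The authors' table of processed values, whose normalization the labels and headers leave unstated, placed miR-375 at 49, 28, 37, 24, 31 and 45 intensity units in dsVg pools 1 to 6. It placed it at 53, 56, 31, 55, 55 and 67 units in dsGFP pools 1 to 6. The same dsGFP pool, pool 3, was again the low one, although its ratio to the median empty spot, 1.48, was the highest of its group. The means were 35.7 ± 9.83 units in the dsVg group and 52.8 ± 11.8 units in the dsGFP group (SD, n = 6 each). On the log2 scale, with 1 added to each value, the difference in that table was -0.56 (SE 0.23).

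The size of the difference of miR-375 was not the same in both sets of arrays. Within the arrays with over 80 detected miRNAs the difference was -0.17 (SE 0.17), and within the other arrays, whose dsVg pools had most miRNAs below the empty spots, it was -0.59 (SE 0.13). Without dsVg pools 4 and 5, an alternative chosen after the data were seen, it was -0.29 (SE 0.13). Whether the sets differ, and the part of the array background in the difference, was not tested. With plain subtraction of the median empty spot the difference was -1.69.

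The normalized signal of miR-989 was 8.83, 8.0, 7.38, 7.81, 8.54 and 7.70 in dsVg pools 1 to 6. In dsGFP pools 1 to 6 it was 7.70, 7.38, 7.81, 7.70, 7.32 and 7.49. A set of 3 dsVg pools, 1, 2 and 5, exceeded every dsGFP pool, while dsVg pool 3 was among the lowest of all 12. In dsVg pool 5, however, miR-989 was not detected, at 1.18 times the median empty spot with 76.2% of miRNAs below that median. The means were 8.04 ± 0.54 in the dsVg group and 7.56 ± 0.20 in the dsGFP group (SD, n = 6 each), a difference of 0.48 (SE 0.22), or 1.39-fold. The SD between dsVg pools was 2.78 times that between dsGFP pools.

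In the authors' processed values miR-989 was at 189, 133, 91, 129, 176 and 91 units in dsVg pools 1 to 6. It was at 93, 75, 127, 98, 68 and 74 units in dsGFP pools 1 to 6. Here 4 dsVg pools exceeded every dsGFP pool, among them pool 5, where miR-989 was not detected. The means were 135 ± 41.3 units in the dsVg group and 89.2 ± 21.9 units in the dsGFP group (SD, n = 6 each), and the log2 difference was 0.57 (SE 0.24). Pool 3 of each group had the highest ratio to the empty spots, and after normalization dsVg pool 3 was the lowest of its group while dsGFP pool 3 was the highest of its own. The difference was 0.34 (SE 0.37) within the arrays with over 80 detected miRNAs and 0.62 (SE 0.25) within the others. It turned to -0.03 when arrays were scaled to the 75th percentile of the miRNAs detected on all of them, a scaling that moved the median of all 84 differences by -0.33, where leaving out normalization moved it by 0.13. Relative to the median of all 84 under that scaling, the difference of miR-989 was 0.28.

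The normalized signal of miR-750 ran from 6.64 through a median of 6.73 to 6.93 in dsVg pools, and from 6.46 through a median of 6.68 to 6.83 in dsGFP pools. The 2 highest pools, dsVg pools 2 and 4, were above every dsGFP pool, and the others overlapped. In dsVg pool 4, however, miR-750 was not detected, at 0.856 times the median empty spot with 0 of 18 spots above the 95th percentile. The means were 6.77 ± 0.12 in the dsVg group and 6.66 ± 0.14 in the dsGFP group (SD, n = 6 each), a difference of 0.11 (SE 0.09) that was smaller than the spread between pools. The authors' processed values were 33, 24, 20, 32, 29 and 20 units in dsVg pools 1 to 6 and 16, 21, 27, 25, 14 and 17 units in dsGFP pools 1 to 6. The difference there was 0.39 (SE 0.21) on the log2 scale, whereas scaling to the 75th percentile of the detected miRNAs put it at -0.30, which was 0.0049 above the median of all 84. Without dsGFP pool 5, the lowest of its group, it was 0.07.

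The normalized signal of miR-1175 was 8.0, 6.62, 6.64, 6.58, 6.62 and 6.62 in dsVg pools 1 to 6. In dsGFP pools 1 to 6 it was 6.73, 6.63, 6.73, 6.76, 6.61 and 6.99. A single dsVg pool, pool 1, was above every dsGFP pool, and the other 5 dsVg pools were below the dsGFP mean. The means were 6.85 ± 0.57 in the dsVg group and 6.74 ± 0.14 in the dsGFP group (SD, n = 6 each), a difference of 0.11 (SE 0.23) that became -0.12 without dsVg pool 1 and, with that pool kept, 0.23 without dsVg pools 4 and 5.

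The authors' processed values showed the same single pool, with 80, 15, 15, 15, 23 and 16 units of miR-1175 in dsVg pools 1 to 6. They were 21, 20, 19, 22, 24 and 34 units in dsGFP pools 1 to 6. In these values 4 dsVg pools were below every dsGFP pool and 1 was above, and the log2 difference was -0.08 (SE 0.37). In the scanner table of dsVg pool 1 the 18 spots of miR-1175 averaged 385 ± 16.1 intensity units (SD over spots), against a median of 362 over all miRNAs of that array, and all 18 exceeded the 95th percentile of its empty spots. Every miRNA on that array passed the detection threshold. The part of this array's background in the high value was not tested.

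**Figure D2:**
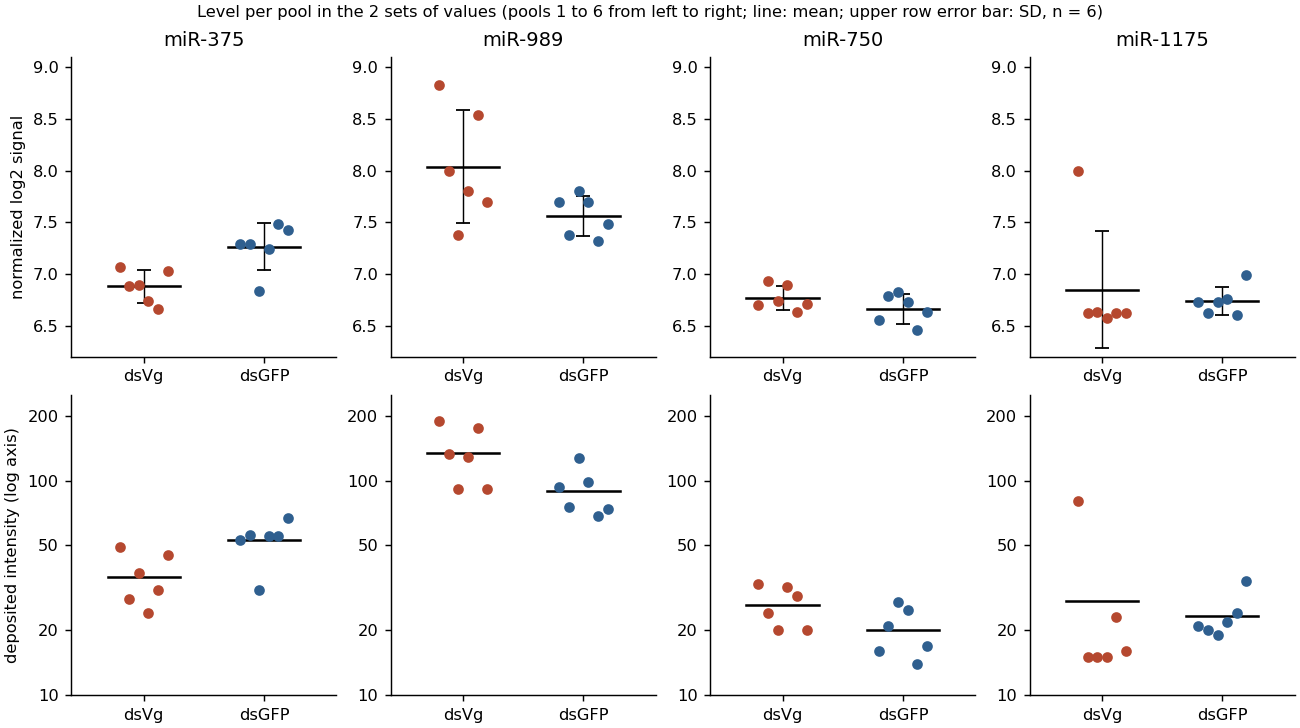
Points are pools, dsVg left and dsGFP right in each panel, with pools 1 to 6 from left to right; the upper row gives the normalized log2 signal with the mean and SD (n = 6), and the lower row the authors' processed intensity on a log axis with the mean. All dsVg points of miR-375 lie below the dsGFP mean of 7.26, and the point of dsVg pool 1 stands alone at 8.0 for miR-1175.

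The place of each miRNA in the order of raw intensities on its own array needs no correction or scaling between arrays. Quantile normalization sets signals by nearly this same order, so the ranks restate the normalized signals and are no separate check of them. For miR-989, rank 45 in dsVg pool 6 and in dsGFP pools 1 and 4 went with 7.70 in each. Since binding differs between probes, a rank describes signal and is compared only for the same probe. With 1 as the brightest, miR-375 ranked 57, 63, 62, 73, 82 and 58 in dsVg pools 1 to 6 and 52, 56, 65, 53, 48 and 49 in dsGFP pools 1 to 6. Only dsGFP pool 3 among the control pools fell into the dsVg range, and the mean rank was 65.8 ± 9.75 in the dsVg group and 53.8 ± 6.18 in the dsGFP group (SD, n = 6 each).

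miR-989 ranked from 34 through a median of 42 to 50 in dsVg pools and from 43 through a median of 46.5 to 53 in dsGFP pools. The ranks of miR-750 ran from 61 through a median of 73.5 to 86 in dsVg pools and from 66 through a median of 83.5 to 149 in dsGFP pools. Those of miR-1175 ran from 41 through a median of 89.5 to 106 in dsVg pools and from 60 through a median of 73.5 to 91 in dsGFP pools, and without dsVg pool 1, at 41, the brightest dsVg rank was 87. For all 3 the ranks of the groups overlapped.

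**Figure D3:**
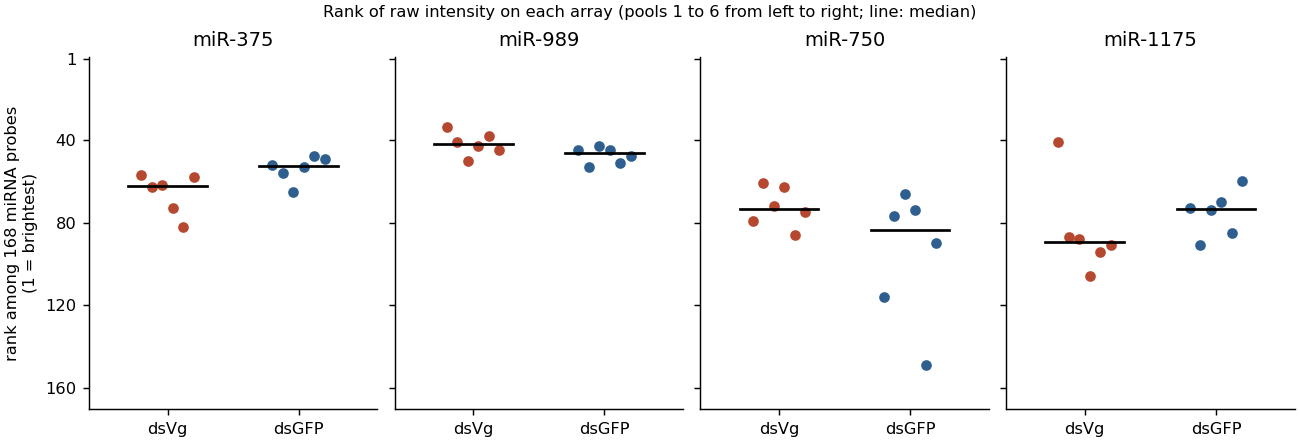
Points give the rank of each miRNA's raw intensity among all miRNA probes of the array (y axis, 1 = brightest, at the top), per pool, with dsVg left and dsGFP right and a line at the median. The median rank of miR-375 was 62.5 in dsVg pools and 52.5 in dsGFP pools, and the widest scatter was that of miR-750 in dsGFP pools.

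How firmly each value is set depends on the spread between pools more than on the spots. The SE over the 18 spots of an array, on the log2 scale, had a median over arrays of 0.037 for miR-375 and 0.038 for each of the other 3. The SD between pools of a group, pooled over both groups, was 0.20 for miR-375, 0.41 for miR-989, 0.13 for miR-750 and 0.41 for miR-1175. Near the background the correction compresses differences.

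Because scaling an array moves all its miRNAs together, the differences were also taken relative to the median of the 84 tested, over the reported setting and 10 others of background correction, normalization, spot summary or source table. Of these settings 4, the scalings by 1 factor per array and no normalization, give the same relative values by construction. That of miR-375 lay below the median in all 11, from -1.70 to -0.27. That of miR-989 lay above it in all 11, from 0.15 to 0.995, and that of miR-750 also did, though by as little as 0.0049. That of miR-1175 lay above the median in 5 and below it in 6.

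**Figure D4:**
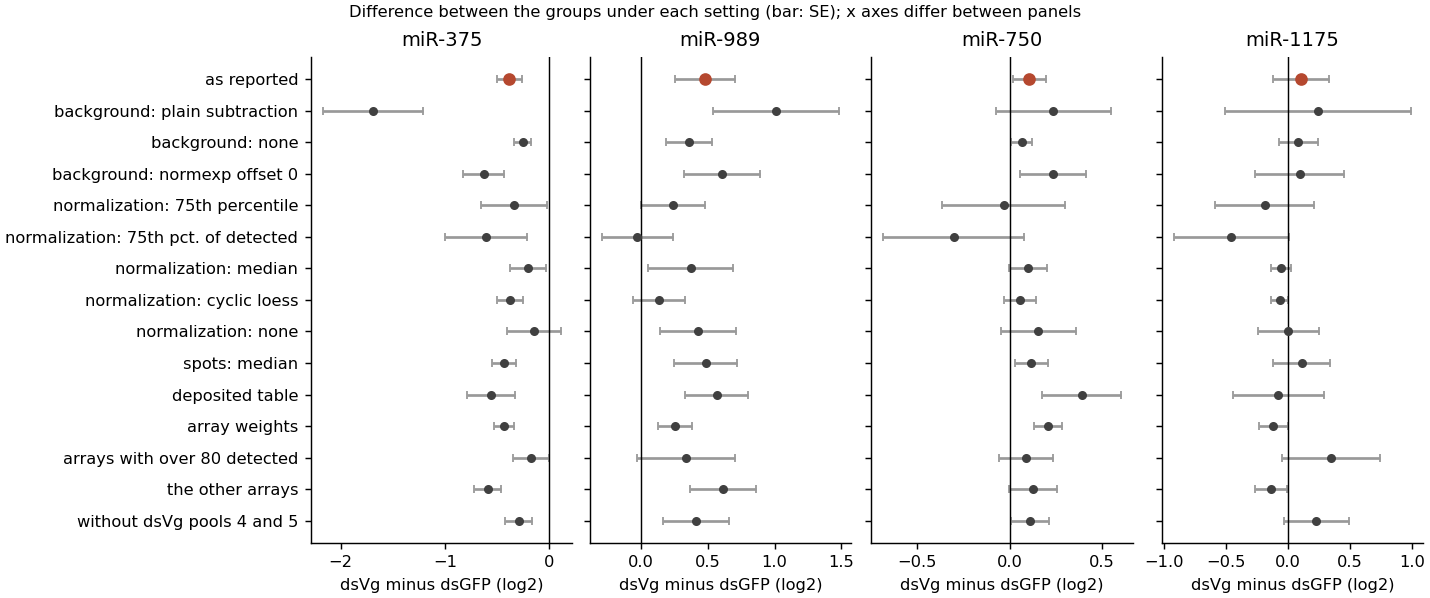
Points give the difference between the groups (x axis, dsVg minus dsGFP on the log2 scale, with its SE as a bar) for each miRNA under the reported setting at the top and 14 other settings below it, and the vertical line marks 0. The points of miR-375 all lie left of 0, those of miR-989 lie right of 0 except -0.03 under scaling to the 75th percentile of detected miRNAs (median of all 84, -0.31), and those of miR-1175 lie on both sides.

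Across pools, no pair of the 4 miRNAs had a correlation that passed adjustment. After the mean of each group was subtracted, the 12 pools gave a correlation between miR-750 and miR-1175, the pair with neighbouring precursors, of r = -0.18 (permutation p = 0.644) and rho = -0.13 (permutation p = 0.679). The adjusted p was 0.745 for r and 0.815 for rho over the 6 pairs of members. The r was -0.12 without the 2 pools farthest from the median of miR-750, -0.43 within the arrays with over 80 detected miRNAs and -0.06 within the others. Of the 3486 pairs among the 84 tested miRNAs, whose median r was 0.0036, 62.8% had a higher r. On the 6 arrays with fewer detected miRNAs, miR-750 was detected on 0 and miR-1175 on 1.

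The other 5 pairs had r from -0.53, for miR-375 and miR-750, to 0.66, for miR-989 and miR-1175, and none passed adjustment (permutation tests, two-sided, smallest adjusted p = 0.126 for r). The r of miR-989 and miR-1175 was 0.15 without dsVg pools 1 and 3 and therefore rested on them. All pools share the arrays and their normalization with both miRNAs of a pair.

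Among the other tested miRNAs, the profile of miR-989 over the 12 pools was most like those of miR-31a (r = 0.97), miR-92a (r = 0.92) and miR-263b (r = 0.90), each centred within its group. Leaving out any 1 pool kept these r at 0.95, 0.87 and 0.87 or above. Their own differences were 0.62 for miR-31a, 0.33 for miR-92a and 0.32 for miR-263b, the last 2 of which were at -0.17 and -0.04 under scaling to that 75th percentile, both above the median of -0.31 over all 84. Of these, miR-31a and miR-263b were detected on all 12 arrays. The nearest to miR-375 were miR-1000 (r = 0.82), a neuronal miRNA in Drosophila, miR-305 (r = 0.78), which acts in the stem cells of the Drosophila gut, and miR-12 (r = 0.73). All 3 had negative differences, -0.26, -0.29 and -0.28, of which that of miR-305 was 0.02 without normalization, where the median of all 84 was 0.15. Without dsGFP pool 3 the r with miR-375 was 0.62 for miR-1000, 0.66 for miR-305 and 0.66 for miR-12.

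For miR-1175 the nearest were miR-316 (r = 0.96), miR-3743 (r = 0.83) and miR-281 (r = 0.78), the last a midgut miRNA of mosquitoes. Without dsVg pool 1 these r were 0.73, 0.55 and 0.43, so that pool carried a large part of the likeness. All 3 were detected on 6 arrays, and their own differences were 0.14, -0.04 and 0.03, the signs of which turned under 5, 1 and 4 of 6 other normalizations or tables. For miR-750 they were miR-8 (r = 0.71), miR-927b (r = 0.70) and miR-3791 (r = 0.69), whose own differences were -0.24, -0.02 and 0.09, where miR-8 kept its negative sign under 6 other normalizations or tables, and the signs of miR-927b and miR-3791 turned under 5 and 2 of them. Over all 3486 pairs of tested miRNAs the 95th percentile of r was 0.756. The r of all 3 miRNAs nearest to miR-750, and that of miR-12 with miR-375, lay below it, although each was picked as among the highest for its member. Such likeness is a description over 12 pools that also share depth of signal and array background.

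Other miRNAs with known work in the same tissues were set beside the 4, from lists chosen with earlier results of these data known. Of the gut and fat body list all 9 were tested, 0 rose and 0 fell by limma's adjusted p, 5 had positive and 4 negative differences (2 and 7 under the 75th percentile scaling of detected miRNAs, against 12 and 72 of all tested, and 7 and 2 without normalization, against 67 and 17), and the median difference was 0.03, against 0.03 over all 84 tested. The largest were miR-14 (-1.54, SE 1.48), which acts in the insulin-producing neurosecretory cells of Drosophila, and miR-31a (0.62, SE 0.30). Of the ovary list 5 of 6 were on the array and 4 were tested, 0 rose and 0 fell, and the median was -0.12 (0.10 without normalization, against 0.15 over all 84), with miR-7 at -0.42 (SE 0.57) and miR-9a at 0.18 (SE 0.22, and -0.03 under that scaling). Of these, miR-318 was detected on 5 arrays and did not enter the test. Of the insulin and hormone list all 6 were tested, 0 rose and 0 fell, and 2 differences were positive and 4 negative, with a median of -0.18 that was 0.06 without normalization. Its largest differences were again those of miR-14 and miR-7. The 4 miRNAs themselves had 3 positive differences and 1 negative, that of miR-375, after quantile normalization, with a median of 0.11. The positive difference of miR-1175 became -0.12 without dsVg pool 1. All 84 tested miRNAs had 45 positive and 39 negative differences in that setting, which is the background for the counts of every list.

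Markers of brain and muscle were compared in the same way. Of the 6 brain markers 0 rose and 0 fell, 3 differences were positive and 3 negative (2 and 4 under the 75th percentile scaling of detected miRNAs, 4 and 2 without normalization), and the median was 0.03, with the neuronal miR-124 at 0.85 (SE 0.41) and miR-7 at -0.42 (SE 0.57). Of the 2 muscle markers 0 rose and 0 fell, with miR-1 at -0.90 (SE 0.37) and miR-133 at 0.57 (SE 0.27). The differences of miR-124, miR-1 and miR-133 were larger in size than those of any of the 4 miRNAs in the reported setting, and their part in the results was not tested.

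The detection of gut miRNAs outside the 4 was not uniform. In the gut and fat body list miR-275, a miRNA of the mosquito gut, miR-263, miR-8, miR-277 and miR-31a were detected on all 12 arrays. miR-281 was detected in 3 dsVg pools and 3 dsGFP pools, the same numbers as miR-750.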

How the data were processed

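The authors deposited 1 scanner table per array (Cy3, 1 colour, per the labels' protocols) with spot intensity on a linear scale, which the file headers call a mean on 11 arrays and a median on that of dsGFP pool 1, and 1 table of processed intensity. The labels and headers name neither the image software nor the normalization of that table. Intensities of dsVg pool 5 were whole numbers. Here intensities were corrected with normexp (offset 50, all spots), each probe's 18 log2 spot values were averaged, and arrays were brought to 1 distribution of miRNA probes by quantile normalization in limma 3.58.1 (R 4.3.3). The 84 miRNAs detected on at least 6 of 12 arrays were compared with lmFit and eBayes, two-sided, with Benjamini-Hochberg adjustment. The fit was tested on simulated data. Correlations between members used 100000 permutations. Members, lists and the rule for named miRNAs (the 4 members, 3 nearest profiles each, 2 largest differences per list) were chosen with earlier results of these data known. Nothing in the labels says that pool numbers pair pools across groups. No pair of arrays in a group agreed within spot noise, as 1 array deposited more than once would (a chi-square of 16.1 to 856 per degree of freedom over 30 pairs), which says nothing on whether pools hold different bees. The labels do not say that different pools hold different bees, so p-values measure the spread between these pools. The number of arrays limits the precision.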

Additional observations from a re-analysis of the deposited data

Results flagged for a closer look

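The normalized log2 signal of miR-1175 in dsVg pool 1 was 8.0, and the nearest of the other dsVg pools was at 6.64, a gap that took up 0.96 of the group's range and passed Dixon's critical value of 0.625 for 6 samples. In the authors' processed intensity the same pool stood apart at 80 units, with the next at 23, a gap of 0.877 of the range. In that table dsGFP pool 6 also stood apart for miR-1175, at 34 units with the next at 24, a gap of 0.667 of the range. These are 3 outlying values among 16 groups of pools examined. For independent groups chance gives about 1 in 20, but both sets of values come from the same arrays. The value of miR-1175 in dsVg pool 1 was counted in each set, so the count of 3 cannot be set against chance.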

How the results depend on the processing

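Differences are dsVg minus dsGFP in log2. For miR-375 the reported -0.38 became -1.69 with plain background subtraction, -0.63 with a normexp offset of 0, -0.61 under scaling to the 75th percentile of the miRNAs detected on all arrays, -0.15 without normalization, -0.17 within the arrays with over 80 detected miRNAs and -0.59 within the others. For miR-989 the reported 0.48 became 1.01 with plain subtraction and -0.0295 under that scaling. For miR-750 the reported 0.11 became -0.0324 with the 75th percentile of all probes, -0.30 under that of the detected miRNAs and 0.39 in the deposited table. For miR-1175 the reported 0.11 became -0.45 under that of the detected miRNAs, and it was detected on 1 array with the threshold of 3 SDs. Its difference was negative in 7 of 15 alternatives, not counting those with 1 pool left out. The causes were not tested, and under the detected-miRNA scaling the median of all 84 differences was -0.31. With 1 pool left out, the differences ran from -0.47 to -0.34 for miR-375, 0.32 to 0.61 for miR-989, 0.07 to 0.14 for miR-750 and -0.12 to 0.16 for miR-1175. The count of miRNAs past the adjusted threshold was 1 with array weights (miR-375, which was selected on this same difference, so the call is no independent evidence) and 0 in every other setting run, among them a test of every miRNA probe and one of the 33 detected on all arrays. At an unadjusted p under 0.05 the count of 3 became 12 when dsVg pool 3 was left out, 8 for dsVg pool 6 and 1 for each of dsVg pool 1, dsGFP pool 1 and dsGFP pool 5. With the pool number as a replicate block, 0 miRNAs passed and the differences kept their values, -0.38, 0.48, 0.11 and 0.11. The r between same-numbered pools ran from -0.27 to 0.53, and 0 of 6 dsVg pools matched their own number best, so the numbers were not treated as pairs.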
